A study of Arabidopsis thaliana with 6 samples.

Results

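Plant mitochondria can move electrons from NAD(P)H to oxygen along a route that bypasses the proton-pumping complexes, and 8 nuclear genes of that route were followed here in Arabidopsis thaliana seedlings. Of these, 4 encode type II NAD(P)H dehydrogenases (NDA1, AT1G07180; NDA2, AT2G29990; NDB2, AT4G05020; NDC1, AT5G08740). The other 4 encode alternative oxidases (AOX1A, AT3G22370; AOX1C, AT3G27620; AOX1D, AT1G32350; AOX2, AT5G64210). They were taken by gene identifier, 8 of 32833 genes in the count table, and were chosen with results of the same comparison of genotypes known. Their own differences between genotypes are therefore given as a description, with no test.

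Type II dehydrogenases are single polypeptides that pass electrons from NADH or NADPH to ubiquinone without pumping protons. NDA proteins face the mitochondrial matrix, NDB proteins face the intermembrane space, and NDC1 is also found in chloroplast plastoglobules, the lipid bodies that hold plastid quinones and tocopherols. Alternative oxidases oxidise ubiquinol and reduce oxygen to water, which bypasses complexes III and IV, and AOX1A is the isoform best known for induction when mitochondrial function is disturbed. NDA1 is known as a light-dependent transcript with a daily rhythm.

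RNA was sequenced from whole seedlings of the wild-type accession Col-0 and of gi-2, a mutant allele of GIGANTEA (GI), a clock-associated protein best known for its role in day-length-dependent flowering. Both genotypes were 7 d old, were raised on 0.5x MS plates in short days (8 h light, 16 h dark) under 80 µmol m-2 s-1 of light, with the temperature kept at 22 °C, and received no further treatment. Each of the 3 replicates per genotype was a pool of 40 to 60 seedlings taken at ZT0, when the lights come on. The labels do not say whether the pools came from separate days, so any p-value measures only the spread between these pools.

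Libraries held 18739317 to 23617717 counts, so that 3 counts amount to 0.127 to 0.160 CPM. CPM is a count scaled to library size, here by the TMM method. GI transcript was present in gi-2, with 183, 210 and 139 counts, and had 68, 59 and 53 counts in Col-0; the log2 fold change was 1.37 with an SE of 0.21 (edgeR adjusted p = 0.000168). Whether gi-2 plants make GI protein cannot be read from these counts. Markers of seed, root and green tissue differed between genotypes, not all in 1 direction. The summed level of 6 seed storage genes was 20.3, 359 and 60.7 CPM in gi-2 and 1.16, 6.04 and 10.6 CPM in Col-0, with 0, 1 and 1 of the genes at 0 in gi-2 and 4, 3 and 2 at 0 in Col-0. The summed level of 4 root markers was 2240 to 2390 CPM in gi-2 and 3470 to 3900 CPM in Col-0, a sum that was almost all PYK10. PYK10 and COBL9 fell by 0.72 and 0.69 on the log2 scale, CASP1 rose by 0.56, and EXP7 was at -0.59 and did not pass (edgeR adjusted p = 0.154). The summed level of 4 green tissue markers overlapped, at 61900 to 69200 and 58600 to 63700 CPM, and was mostly LHCB1.3, which rose by 0.34 while RBCS1A, RBCS2B and CAB3 fell by 0.55, 0.88 and 0.39. Sequence shared with related genes was not checked for these 4 markers, so the direction of each is uncertain. No root or green tissue marker was at 0 in any library. In RNA from whole seedlings, fewer cells of a type and less RNA per cell cannot be told apart, and the part of tissue makeup in the differences below was not tested.

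The promoters of the 5 genes that the results turn on are shown first, as the 300 bases before each annotated start, read from the RefSeq TAIR10.1 genome. They are NDA1 (chr1:2203804-2204103, plus strand), NDB2 (chr4:2572127-2572426, plus strand), NDC1 (chr5:2851535-2851834, minus strand), AOX1A (chr3:7906221-7906520, plus strand) and AOX2 (chr5:25685732-25686031, minus strand). Capitals mark matches on either strand to the motifs described after them.
NDA1: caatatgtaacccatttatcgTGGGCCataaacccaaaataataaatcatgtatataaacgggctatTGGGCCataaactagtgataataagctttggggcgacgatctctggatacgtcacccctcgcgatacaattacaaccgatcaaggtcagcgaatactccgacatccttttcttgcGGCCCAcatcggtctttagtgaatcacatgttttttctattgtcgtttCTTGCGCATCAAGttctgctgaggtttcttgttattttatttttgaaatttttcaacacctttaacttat
NDB2: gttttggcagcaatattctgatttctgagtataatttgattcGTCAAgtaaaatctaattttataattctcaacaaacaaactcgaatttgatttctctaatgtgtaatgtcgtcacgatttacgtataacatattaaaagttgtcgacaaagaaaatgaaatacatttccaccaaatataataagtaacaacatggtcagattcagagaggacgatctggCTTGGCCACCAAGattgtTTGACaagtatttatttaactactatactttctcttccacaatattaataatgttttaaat
NDC1: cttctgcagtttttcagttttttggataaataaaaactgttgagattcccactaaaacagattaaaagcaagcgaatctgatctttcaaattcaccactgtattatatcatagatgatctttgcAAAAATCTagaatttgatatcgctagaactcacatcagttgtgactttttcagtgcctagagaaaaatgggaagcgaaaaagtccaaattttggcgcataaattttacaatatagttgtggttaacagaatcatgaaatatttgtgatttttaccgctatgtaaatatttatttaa
AOX1A: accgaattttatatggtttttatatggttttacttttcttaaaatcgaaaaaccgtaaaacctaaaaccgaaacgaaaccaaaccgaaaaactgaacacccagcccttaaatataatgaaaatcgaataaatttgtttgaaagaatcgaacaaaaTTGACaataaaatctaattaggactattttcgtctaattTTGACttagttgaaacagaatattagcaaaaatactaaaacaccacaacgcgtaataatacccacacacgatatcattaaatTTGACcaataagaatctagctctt
AOX2: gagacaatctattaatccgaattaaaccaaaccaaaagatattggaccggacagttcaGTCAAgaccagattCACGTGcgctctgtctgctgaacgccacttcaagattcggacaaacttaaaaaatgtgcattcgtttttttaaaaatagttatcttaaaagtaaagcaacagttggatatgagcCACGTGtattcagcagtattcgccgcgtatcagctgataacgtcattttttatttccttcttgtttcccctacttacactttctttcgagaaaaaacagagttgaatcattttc

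The motifs searched, on both strands, were the evening element AAAATATCT, the CCA1-binding site AAAAATCT, the G-box CACGTG, the W-box core TTGAC, the I-box GATAAG, the site II element TGGGCC and the mitochondrial dysfunction motif, which the transcription factors ANAC013 and ANAC017 bind. NDA1 and NDB2 each held 1 match to the mitochondrial dysfunction motif, at 70 to 58 and 79 to 67 bases before the start. Among 27443 promoters of the same length, 1.37% held a match. The related genes NDB3 and AOX1B, outside the 8, held it too, at 126 to 114 and 118 to 106 bases before the start. NDB2 also held 2 W-box cores, at 258 to 254 and 61 to 57 bases before the start. NDA1 also held 3 site II elements (14.6% of promoters held at least 1), and NDC1 held 1 CCA1-binding site (7.94%). The AOX2 promoter held 2 G-boxes, at 228 to 223 and 114 to 109 bases before the start (7.09% of promoters), and 1 W-box core. The AOX1A window held 3 W-box cores, a motif that 50.4% of promoters held, and no match to the mitochondrial dysfunction motif. No evening element or I-box was in the promoter window of any of the 8 genes (2.79% and 14.5% of promoters). NDA2 and AOX1C each held 1 W-box core and 1 site II element, and AOX1D held 2 W-box cores. A match is a description of the letters and not a shown binding site.

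Across the 8 genes, the clearest differences at dawn were a lower NDA1 level in gi-2, smaller decreases of NDB2 and NDC1, and more AOX2 transcript from a very low base. AOX1A, the most abundant oxidase, differed little. In the edgeR fit over all 19699 tested genes, 32.6% had a Benjamini-Hochberg adjusted p under 0.05 (16.3% higher, 16.2% lower in gi-2). By that same cutoff, given only to describe them, 3 of the 7 tested genes among the 8 were lower and 1 higher. For 5 of these 7 genes the gi-2 and Col-0 libraries were fully apart, as they were for 45.3% of all tested genes. The untested AOX1C was apart only narrowly, with 0.350 CPM in its highest gi-2 library and 0.354 CPM in its lowest Col-0 library. Because the genes were chosen on this comparison, these counts are no test of them and nothing is read from them. AOX1C failed the filter, and AOX2 passed it only through its gi-2 libraries.

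**Figure D1:**
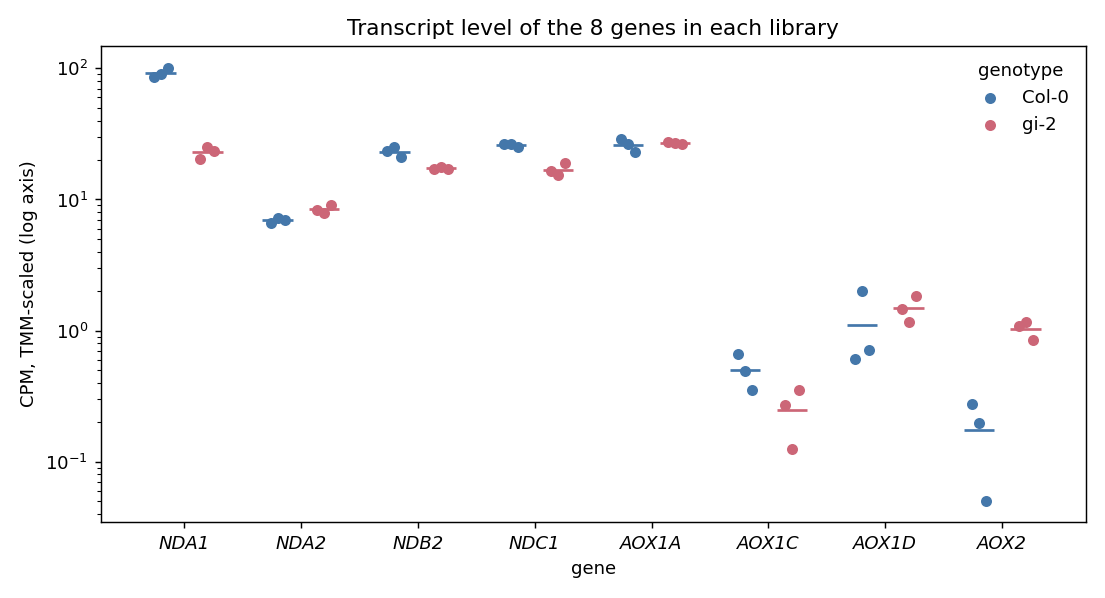
Transcript level of the 8 genes in each library, in TMM-scaled CPM on a log axis. Points are single libraries of Col-0 (blue) and gi-2 (red) and lines are means of 3. NDA1 lies at 85.3 to 101 CPM in Col-0 and 20.5 to 25.0 CPM in gi-2, and AOX2 lies below 0.3 CPM in every Col-0 library.

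NDA1 encodes an internal dehydrogenase that oxidises matrix NADH (chromosome 1, 2204104 to 2207099, TAIR10; 8 exons). In replicates 1, 2 and 3, in that order here and below, its level was 20.5, 25.0 and 23.6 CPM for gi-2 and 85.3, 90.2 and 101 CPM for Col-0. Every gi-2 library was far below every Col-0 library, and the 3 libraries of each genotype lay close together. Means were 23.1 ± 2.32 and 92.3 ± 8.24 CPM (SD, n = 3 each), and the log2 fold change was -2.0 (SE 0.0985, 95% interval -2.21 to -1.79). A larger decrease was seen in 0.437% of tested genes, a rank that is only a description, since NDA1 was chosen on this comparison. The counts behind these levels were 452 to 598 per gi-2 library and 1540 to 2006 per Col-0 library. Leaving out any single library kept the log2 fold change between -2.07 and -1.93.

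NDA2, its closest relative (81.1% identical in the aligned coding sequence) and likewise an internal NADH dehydrogenase, did not follow it (chromosome 2, 12793320 to 12796085; 8 exons). It stood at 8.25, 7.91 and 9.11 CPM in gi-2 and at 6.65, 7.22 and 6.97 CPM in Col-0. All gi-2 libraries were above all Col-0 libraries, by a narrow margin. The log2 fold change was 0.28 (SE 0.16, 95% interval -0.0688 to 0.622). The ratio of NDA1 to NDA2, per length, was 2.45 ± 0.321 in gi-2 and 11.9 ± 0.964 in Col-0 (SD, n = 3 each).

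NDB2, an external dehydrogenase that oxidises cytosolic NADH and is known to be induced together with AOX1A under stress, lies on chromosome 4 at 2572427 to 2576599 (11 exons). Its level was 17.2, 17.8 and 17.1 CPM in gi-2 and 23.3, 24.9 and 21.2 CPM in Col-0. The gi-2 libraries were nearly equal to each other and all below the Col-0 libraries. The log2 fold change was -0.41 (SE 0.11, 95% interval -0.645 to -0.182), and it ran from -0.47 to -0.36 when single libraries were left out. Its near copy NDB3 (84.8% identical in coding sequence) had 4 to 11 counts per library and shared no stretch of 50 exonic bases with NDB2.

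NDC1, the dehydrogenase of cyanobacterial type that also acts on plastid quinones, lies on chromosome 5 at 2848352 to 2851534 (10 exons). It stood at 16.4, 15.4 and 18.9 CPM in gi-2 and at 26.7, 26.4 and 25.0 CPM in Col-0. The groups were well apart. The log2 fold change was -0.63 (SE 0.11, 95% interval -0.862 to -0.388), with a range of -0.72 to -0.57 when single libraries were left out.

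AOX1A (chromosome 3, 7906521 to 7908746; 4 exons) was the main alternative oxidase transcript. It stood at 27.5, 27.1 and 26.3 CPM in gi-2 and at 29.1, 26.3 and 23.1 CPM in Col-0. The gi-2 libraries lay within the Col-0 range. The log2 fold change was 0.04 (SE 0.11, 95% interval -0.182 to 0.269). Without Col-0 replicate 3 the value was -0.04.

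AOX1D (chromosome 1, 11666886 to 11668690; 4 exons), an isoform known for stress induction and named AOX3 in the deposited table, was low, with 32, 28 and 37 counts in gi-2 and 11, 41 and 14 counts in Col-0. Its level was 1.45, 1.17 and 1.85 CPM in gi-2 and 0.609, 2.01 and 0.708 CPM in Col-0. Col-0 replicate 2 held the highest level of all 6 libraries, while the other Col-0 libraries were the lowest, so the groups overlapped. The log2 fold change of 0.41 (SE 0.48, 95% interval -0.621 to 1.44) depended on single libraries. It was 1.16 (SE 0.515) without Col-0 replicate 2, 0.12 without Col-0 replicate 1, 0.17 without Col-0 replicate 3 and 0.22 without gi-2 replicate 3.

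AOX1C (chromosome 3, 10229045 to 10230707; 4 exons), known mainly from flowers, was at the edge of detection, with 6, 3 and 7 counts in gi-2 and 12, 10 and 7 counts in Col-0. Scaled, its level was 0.272, 0.126 and 0.350 CPM in gi-2 and 0.665, 0.491 and 0.354 CPM in Col-0. The highest gi-2 library and the lowest Col-0 library were nearly equal. The ratio of gi-2 to Col-0 over the summed counts was 0.487, with a counting interval of 0.247 to 0.927 that leaves out the spread between pools.

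AOX2 (chromosome 5, 25683770 to 25685731; 5 exons), an oxidase known mainly from seeds, had 24, 28 and 17 counts in gi-2 and 5, 4 and 1 counts in Col-0. Its level was 1.09, 1.17 and 0.851 CPM in gi-2 and 0.277, 0.196 and 0.0505 CPM in Col-0. All gi-2 libraries were above all Col-0 libraries, and Col-0 replicate 3 was below the level of 3 counts. The ratio over the summed counts was 6.09, with a counting interval of 3.12 to 13.3, and the log2 fold change was 2.55 (SE 0.62, 95% interval 1.21 to 3.89). Seed storage transcript was also higher in every gi-2 library. The gi-2 library with the most seed storage transcript, replicate 2 at 359 CPM, had 1.17 CPM of AOX2, and the one with the least, replicate 1 at 20.3 CPM, had 1.09 CPM. Replicate 3 of gi-2, at 60.7 CPM, had 0.851 CPM. In Col-0 replicate 3 held the most seed storage transcript and the least AOX2, though AOX2 had only 5, 4 and 1 counts in Col-0. With gi-2 replicate 2 left out, the AOX2 difference was 2.45. The part of seed material in the AOX2 difference was not tested.

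**Figure D2:**
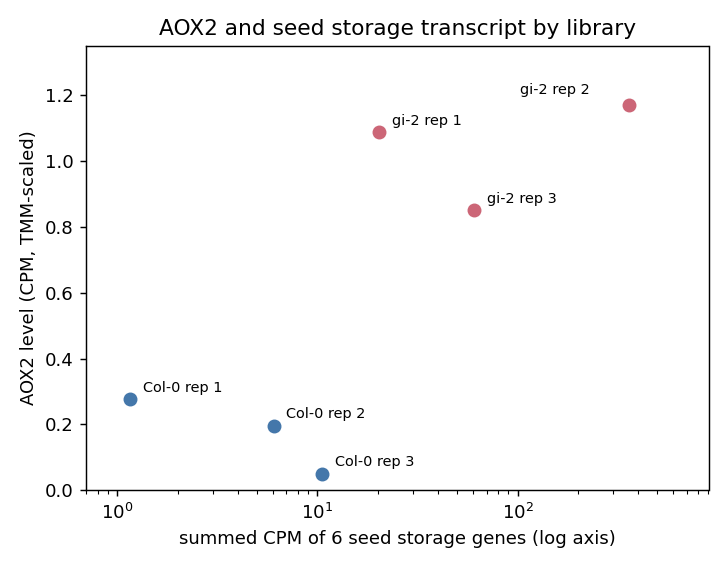
AOX2 level (CPM) against the summed level of 6 seed storage genes (CPM, log axis) in each library, Col-0 in blue and gi-2 in red. In gi-2, AOX2 was 1.09, 0.851 and 1.17 CPM in the libraries with 20.3, 60.7 and 359 CPM of seed storage transcript.

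Neither related gene with enough counts for a test passed the threshold. NDB1 (AT4G28220), an external dehydrogenase that uses NADPH, averaged 39.7 ± 1.57 CPM for gi-2 and 38.6 ± 2.5 CPM for Col-0 (SD, n = 3 each), with a log2 difference of 0.04 (SE 0.09, 95% interval -0.145 to 0.231; edgeR adjusted p = 0.751). PTOX (AT4G22260), the plastid terminal oxidase that oxidises plastoquinol, averaged 43.0 ± 1.16 and 42.6 ± 0.548 CPM, with a log2 difference of 0.01 (SE 0.08, 95% interval -0.159 to 0.185; edgeR adjusted p = 0.924). NDB3 (AT4G21490) had 11, 9 and 11 counts in gi-2 and 8, 8 and 4 in Col-0, and NDB4 (AT2G20800) had 7, 4 and 2 against 0, 0 and 4. AOX1B (AT3G22360), which sits close to AOX1A, had 0 counts in all 6 libraries, and these last 3 genes were too low to test.

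The makeup of the dehydrogenase transcripts differed between genotypes, mostly through NDA1. Compared per kilobase of gene length (FPKM), the 7 type II dehydrogenases summed to 44.2 ± 2.06 FPKM in gi-2 and 81.2 ± 3.22 FPKM in Col-0 (SD, n = 3 each). Without NDA1 the sums were 33.6 ± 1.59 and 38.7 ± 1.78 FPKM, so NDA1 held most of the difference. NDA1 made up 24.0 ± 1.89% of the sum in gi-2 and 52.3 ± 3.0% in Col-0. NDB1 made up 32.5% in gi-2 and 17.1% in Col-0, and in gi-2 it was the largest share. The shares of NDC1 (17.6% and 14.7%), NDB2 (15.4% and 11.1%) and NDA2 (9.82% and 4.41%) were likewise larger in gi-2, although the levels of NDC1 and NDB2 were lower there.

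The summed level of the oxidases overlapped between genotypes. The 5 mitochondrial oxidases summed to 17.2 ± 0.321 FPKM in gi-2 (17.0 to 17.6) and 16.1 ± 1.93 FPKM in Col-0 (13.9 to 17.6). AOX1A made up 88.7 ± 1.10% of that sum in gi-2 and 92.4 ± 2.97% in Col-0. AOX2 made up 4.54 ± 0.706% and 0.783 ± 0.465%. Against AOX1A, NDA1 stood at a ratio of 0.695 ± 0.0774 in gi-2 and 2.91 ± 0.599 in Col-0, and NDB2 at 0.443 ± 0.0115 and 0.611 ± 0.0542.

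**Figure D3:**
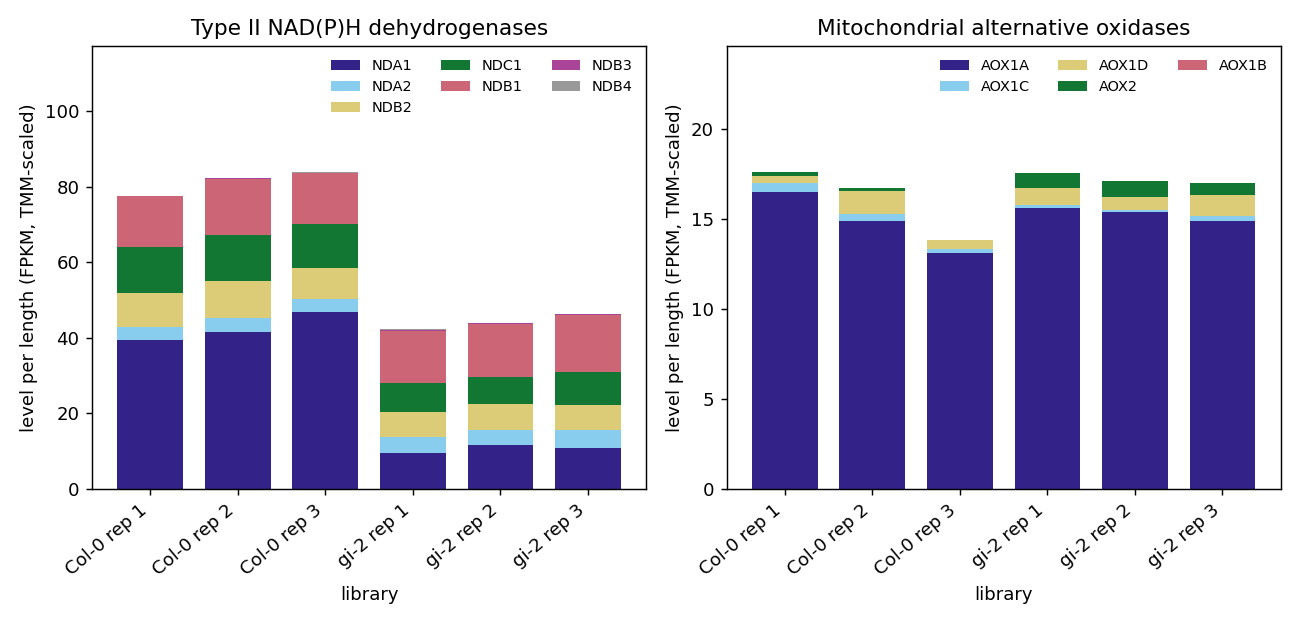
Stacked levels per length (FPKM) of 7 type II dehydrogenases (left) and 5 mitochondrial alternative oxidases (right) in each library. The dehydrogenase sum is 77.6 to 83.8 FPKM in Col-0 and 42.2 to 46.3 FPKM in gi-2, and the NDA1 block accounts for most of the gap.

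The order of the 8 genes per length differed between genotypes in its first and last places. In Col-0 NDA1 was first at 42.5 ± 3.79 FPKM, followed by AOX1A at 14.8 ± 1.70, NDC1 at 12.0 ± 0.416, NDB2 at 9.03 ± 0.731 and NDA2 at 3.58 ± 0.150 FPKM. In gi-2 AOX1A was first at 15.3 ± 0.361 FPKM, followed by NDA1 at 10.6 ± 1.05, NDC1 at 7.77 ± 0.825, NDB2 at 6.78 ± 0.161 and NDA2 at 4.34 ± 0.315 FPKM. AOX1D came next in both genotypes, at 0.728 ± 0.514 FPKM in Col-0 and 0.976 ± 0.222 FPKM in gi-2. AOX1C followed at 0.374 ± 0.116 FPKM in Col-0, with AOX2 last at 0.132 ± 0.0866 FPKM, and in gi-2 AOX2 (0.783 ± 0.126 FPKM) was ahead of AOX1C (0.185 ± 0.0846 FPKM). Neighbours in the order overlapped between libraries only for AOX1D with AOX1C in Col-0 and for AOX1D with AOX2 in gi-2.

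The genes most like the 4 most abundant ones were sought among 12618 genes, by the root mean square difference of log2 CPM, centred on each gene, over the 6 libraries. Nearest to NDA1 were COL2 (AT3G02380), a B-box relative of the flowering regulator CONSTANS, at 0.0936, and RBCS1B (AT5G38430), a Rubisco small subunit gene, at 0.119. COL2 averaged 53.7 ± 3.75 CPM for gi-2 and 201 ± 4.55 CPM for Col-0, and RBCS1B 165 ± 7.93 and 680 ± 56.1 CPM. RBCS1B sits beside near-identical genes, so its own level is uncertain. NDC1 was nearest to the receptor-like kinase gene AT4G23740 (0.0433) and the histone gene AT1G09200 (0.044). NDB2 was nearest to ERECTA (ER; 0.0401), a receptor kinase of organ shape, and to SKB1 (0.0409), a protein arginine methyltransferase. AOX1A was nearest to the histone acetyltransferase gene HAC1 (0.0107) and to the nucleoporin gene SAR3 (0.0166). With 6 libraries in 2 groups, likeness to NDA1, NDC1 and NDB2 mostly restates the size of the difference between genotypes. For AOX1A, with a log2 fold change of 0.04, likeness mostly restates the spread between single libraries.

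The gene lists here and below were chosen with earlier results of these data known. Their shares of called genes are a description, and no list was tested as a set. The main respiratory chain, which the alternative enzymes run beside, had few called genes. Of 67 tested genes of complexes I to IV and cytochrome c, 3 rose and 7 fell in gi-2 (edgeR), 14.9% against 32.6% of all tested genes. Their median log2 fold change was -0.04 and their median absolute value 0.143, against 0.00176 and 0.286 over all tested genes. Of 32 complex I genes, PSST rose by 0.28 and the gamma carbonic anhydrase-like subunit GAMMA-CAL2 by 0.28 on the log2 scale, and GLDH, the last enzyme of ascorbate synthesis and an assembly factor of the complex, fell by 0.36 (edgeR adjusted p = 0.00973, 0.038 and 0.025). CI51 and EMB1467, abundant complex I subunits, had log2 fold changes of 0.13 and 0.03. These calls depended on single libraries. PSST was lost without Col-0 replicate 2 or gi-2 replicate 3 (edgeR adjusted p = 0.0745 and 0.0536). GLDH was lost without Col-0 replicate 1, gi-2 replicate 1 or gi-2 replicate 3 (edgeR adjusted p from 0.0551 to 0.0803). GAMMA-CAL2 was lost without any single library except Col-0 replicate 1 (edgeR adjusted p from 0.0647 to 0.15). Without Col-0 replicate 1 as many as 5 complex I genes rose, CI51 and EMB1467 among them (edgeR adjusted p = 0.0173 and 0.049).

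Of 10 complex II genes, only the membrane anchor subunit SDH3-2 was called, 10% against 32.6% of all tested genes. It rose by 0.37 (edgeR adjusted p = 0.0414). That call was lost without Col-0 replicate 2, Col-0 replicate 3, gi-2 replicate 1 or gi-2 replicate 3 (edgeR adjusted p from 0.0872 to 0.191), in DESeq2 (adjusted p = 0.0675) and in limma-voom (adjusted p = 0.0537). The replicate block gave an edgeR adjusted p of 0.0623. SDH5 and SDH1-1 had log2 fold changes of -0.04 and -0.17.

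Complex III and cytochrome c had 5 of 16 genes lower and none higher in gi-2, 31.2%, close to the 32.6% of all genes, with a median of -0.20. CYTC-2, a cytochrome c, fell by 0.65 (SE 0.142; edgeR adjusted p = 0.00279), from 12.9 ± 0.859 CPM in Col-0 to 8.24 ± 0.521 CPM in gi-2 (SD, n = 3 each). CYC1-1, a cytochrome c1, fell by 0.28, the Rieske protein gene RISP1 by 0.34 and the processing peptidase subunit MPPBETA by 0.24 (edgeR adjusted p = 0.0114, 0.0266 and 0.026). Leaving out gi-2 replicate 1, 2 or 3 brought the count of 5 to 2, 3 and 2. CYC1-1 was lost without gi-2 replicate 2, MPPBETA without each gi-2 replicate, and RISP1 without Col-0 replicate 1 (log2 fold change -0.19), gi-2 replicate 1 or gi-2 replicate 3 (edgeR adjusted p from 0.0541 to 0.107 over these). MPPALPHA1 and CYC1-2 had log2 fold changes of -0.19 and 0.07. Without Col-0 replicate 3 MPPALPHA1 was at -0.24 and passed the threshold (edgeR adjusted p = 0.0437).

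Of 9 complex IV genes, only COX5C-3 was called, 11.1% against 32.6% of all tested genes. It fell by 0.92 (SE 0.26; edgeR adjusted p = 0.0139), from 5.27 ± 1.26 CPM in Col-0 to 2.77 ± 0.567 CPM in gi-2 (SD, n = 3 each). The call was lost without Col-0 replicate 3 or gi-2 replicate 3 (edgeR adjusted p from 0.0595 to 0.0612). COX6A and COX6B-1 had log2 fold changes of -0.10 and 0.05.

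Transcripts of several other proteins that feed electrons to ubiquinone, directly or through other proteins, were higher in gi-2. Of 9 genes, 5 rose and 1 fell, 66.7% against 32.6% of all genes, with a median log2 fold change of 0.33. IVD, which breaks down leucine, rose by 1.75 (SE 0.0819; edgeR adjusted p = 3.05e-09), from 79.8 ± 6.17 to 268 ± 15.3 CPM. PRODH1, which oxidises proline, rose by 1.25 (SE 0.115; edgeR adjusted p = 1.71e-06), from 88.9 ± 12.5 to 211 ± 31.5 CPM. ETFQO, which hands electrons of the electron transfer flavoprotein to ubiquinone, rose by 0.97 (SE 0.101; edgeR adjusted p = 5.3e-06), from 23.3 ± 1.88 to 45.5 ± 4.03 CPM, and ETFB, a subunit of that flavoprotein, rose by 0.68. The other subunit, ETFA, rose by 0.33 (edgeR adjusted p = 0.0484), a call that was lost with any single library left out (edgeR adjusted p from 0.0659 to 0.174), in DESeq2 (adjusted p = 0.0944), in limma-voom (adjusted p = 0.0539), with no low-count filter (edgeR adjusted p = 0.0704) and with the replicate block (edgeR adjusted p = 0.0664). PYRD, the dihydroorotate dehydrogenase of pyrimidine synthesis, fell by 0.69 (edgeR adjusted p = 0.00595). SDP6, which oxidises glycerol 3-phosphate, and D2HGDH, which oxidises 2-hydroxyglutarate, had log2 fold changes of 0.05 and 0.33. Without Col-0 replicate 3 D2HGDH was at 0.46 and passed the threshold (edgeR adjusted p = 0.0305).

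Of 5 tested mitochondrial uncoupling and dicarboxylate carriers, 2 rose and 1 fell, 60% against 32.6% of all tested genes. DIC1 and DIC2, which exchange dicarboxylates, rose by 1.36 (SE 0.238) and 2.0 (SE 0.366) on the log2 scale (edgeR adjusted p = 0.00053 and 0.000754). DIC2 stood at 20.7, 8.37 and 6.11 CPM in gi-2 and 3.21, 3.14 and 2.48 CPM in Col-0, and without gi-2 replicate 1, the highest library, its log2 fold change was 1.3. DIC1 was also highest in that library, at 39.6 CPM against 18.9 and 19.3 CPM in the other gi-2 libraries. The uncoupling protein gene UCP1 fell by 0.32 (edgeR adjusted p = 0.0127), which missed the threshold (edgeR adjusted p = 0.0719) when gi-2 replicate 2 was left out. UCP2 and UCP3 had log2 fold changes of -0.27 and -0.20.

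Several plastid quinone and plastoglobule genes, the company of NDC1, were lower in gi-2. Of 9 genes, 5 fell and 0 rose, 55.6% against 32.6% of all genes, with a median of -0.44. ABC4, a prenyltransferase of phylloquinone synthesis, fell by 0.76 (SE 0.145; edgeR adjusted p = 0.00105), from 17.7 ± 2.31 to 10.5 ± 1.44 CPM. FBN4, a fibrillin, fell by 0.51 (SE 0.0978; edgeR adjusted p = 0.00105), from 72.9 ± 8.54 to 51.1 ± 4.6 CPM. The tocopherol cyclase VTE1 fell by 0.60 and the plastoglobule kinase ABC1K3 by 0.46 (edgeR adjusted p = 0.00246 and 0.00343), and PHYLLO, which acts early in phylloquinone synthesis, by 0.44 (edgeR adjusted p = 0.0165). PHYLLO missed the threshold without Col-0 replicate 2 or gi-2 replicate 1 (edgeR adjusted p = 0.0949 and 0.0787). PES1, a phytyl ester synthase gene, averaged 5.39 ± 1.43 CPM for gi-2 and 3.94 ± 0.19 CPM for Col-0, with no overlap between the genotypes, a difference of 0.45 that did not pass (edgeR adjusted p = 0.156). ABC1K1 and MENG had log2 fold changes of -0.22 and 0.16. Without Col-0 replicate 1 the value of MENG was -0.20, and ABC1K1 was at -0.32 and passed the threshold (edgeR adjusted p = 0.00555).

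**Figure D4:**
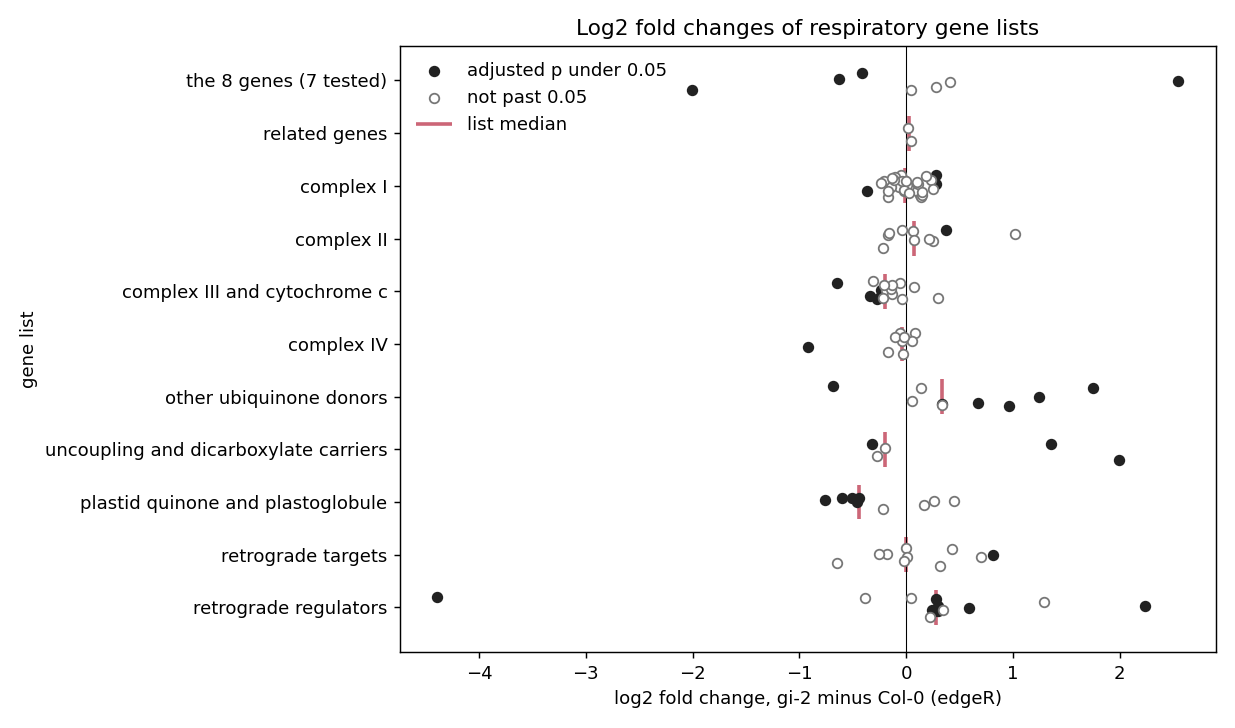
Log2 fold change (gi-2 minus Col-0) of each tested gene by list, with filled points at an edgeR adjusted p under 0.05 and red lines at list medians. The row of the 8 genes is a description with no median, since they were chosen on this comparison. The lists too were chosen with earlier results of these data known, and none was tested as a set. Complexes I to IV cluster near 0 while the plastid quinone list has its median at -0.44.

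AOX1A is the best known of the genes that respond to disturbed mitochondria. Of 10 other tested mitochondrial retrograde targets, 1 rose and none fell, 10% against 32.6% of all tested genes. OM66, an outer membrane ATPase, rose by 0.82 (SE 0.267; edgeR adjusted p = 0.0302), from 3.63 ± 0.544 to 6.36 ± 2.35 CPM. The call of OM66 was lost without Col-0 replicate 2, Col-0 replicate 3, gi-2 replicate 1 (log2 fold change 0.51) or gi-2 replicate 2 (edgeR adjusted p from 0.0695 to 0.209), and in limma-voom (adjusted p = 0.0512). CRF6 and SOT12, the most abundant of the rest, had log2 fold changes of 0.01 and -0.18. The list median was 0.00281, against 0.00176 over all tested genes.

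Of 13 tested regulators of that response, 7 rose and 1 fell, 61.5% against 32.6% of all genes, with a median log2 fold change of 0.28. MYB29, a regulator of aliphatic glucosinolates also known to restrain AOX1A induction, fell by 4.39 (SE 0.484; edgeR adjusted p = 8.87e-06), from 3.0 ± 0.584 CPM in Col-0 to 0.138 ± 0.0499 CPM in gi-2, which is close to the level of 3 counts. WRKY40, a stress-induced repressor, rose by 2.24 (SE 0.314; edgeR adjusted p = 7.84e-05), from 1.71 ± 0.246 to 8.07 ± 3.77 CPM. Its gi-2 libraries were uneven, at 12.3, 6.66 and 5.20 CPM, and the log2 fold change ran from 1.79 to 2.47 when single libraries were left out. RCD1, a nuclear protein that restrains ANAC013 and ANAC017, rose by 0.59 (SE 0.0922; edgeR adjusted p = 0.000211), from 247 ± 33.9 to 372 ± 5.44 CPM. ANAC078 rose by 0.27, ANAC017 by 0.25 and the energy-sensing kinase KIN10 by 0.28 (edgeR adjusted p = 0.0105, 0.0292 and 0.0237), while WRKY15 and SRO1 had log2 fold changes of 0.05 and 0.22. Without Col-0 replicate 1, gi-2 replicate 2 or gi-2 replicate 3 the 7 genes that rose became 4, 3 and 3, and ANAC078 missed the threshold (edgeR adjusted p = 0.0507) when gi-2 replicate 2 was left out. ANAC017 missed it without Col-0 replicate 2, Col-0 replicate 3, gi-2 replicate 2 or gi-2 replicate 3 (edgeR adjusted p from 0.0881 to 0.12), and KIN10 without Col-0 replicate 1, gi-2 replicate 2 or gi-2 replicate 3 (edgeR adjusted p from 0.0502 to 0.126).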

How the data were processed

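RNA from 6 libraries, 3 per genotype, was analysed from raw read counts per gene, which the authors deposited as whole numbers without scaling. Per the submitters' processing notes, the series used TAIR10, STAR 2.5.5, HTSeq 0.6.1 and DESeq2. How counting treated strand and multi-mapping reads is not given in the sources used here, and the libraries carry no strand, per the labels' protocols, so reads of overlapping genes cannot be told apart. None of the 8 genes overlaps another annotated gene or shares a stretch of 50 exonic bases with the rest of the genome. Other genes overlap NDB1, NDB3, ANAC078, WRKY40, KIN10, SDH5, CYC1-1, CYC1-2, MPPBETA, COX5C-3, COX6B-1, ETFQO, ETFA, ETFB, D2HGDH, PYRD, UCP1, UCP2, ABC1K1, LHCB1.3, PYK10, EXP7, CASP1, COL2, SAR3 and SKB1, whose values are uncertain to that extent.

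Of 32833 genes, 8687 had no count. Libraries held 18739317 to 23617717 counts, and intervals on counts cover counting error only. Replicates differed by more than sampling noise (chi-square per degree of freedom 4.96 to 15.6). The comparison used edgeR 4.0.16 in R 4.3.3 with genotype as the sole term: a filter (filterByExpr, minimum count 10 and minimum total 15), TMM scaling, and quasi-likelihood F tests called at an adjusted p under 0.05 over 19699 genes. It was tested on simulated data. FPKM was computed from CPM and the deposited gene lengths. Positions of 32508 of 32524 nuclear genes were identical in RefSeq TAIR10.1, from which sequences were read. Identity was computed on coding sequence, where protein identity had been planned.

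The 8 genes and all lists were chosen with earlier results of these data known. Named genes were the 8, GI, 5 related genes, up to 4 genes past the threshold with the smallest adjusted p and up to 2 abundant ones not past it per list, and the 2 nearest genes of the 4 most abundant members. ETFA, PYRD, PHYLLO, PES1, ANAC017 and KIN10 fall outside that rule and were named after their values were seen. Alternatives were RLE scaling, other filters, DESeq2 1.42.0, limma-voom (limma 3.58.1), each library left out, and the replicate number as a block.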

Additional observations from a re-analysis of the deposited data

How the results depend on the processing

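Called genes numbered 6413, and 6392 with RLE scaling, 6535 with no low-count filter, 6390 at a mean CPM of at least 1, 6083 in DESeq2, 6401 in limma-voom and 4910 to 6687 with single libraries left out. At a mean CPM of at least 1, AOX2 was not measured. Genes of the pathway lists that rose numbered 18, and 10 to 17 with single libraries left out (11 without Col-0 replicate 2, 10 without gi-2 replicate 3); those that fell numbered 15, and 10 to 15. Signs changed with single libraries left out for AOX1A (-0.041 to 0.12), PTOX (-0.016 to 0.024), CRF6 (-0.046 to 0.068), EMB1467 (-0.068 to 0.17), SDH5 (-0.082 to 0.037), COX6B-1 (-0.0028 to 0.12) and MENG (-0.20 to 0.56), none of which was called with all libraries. Without both gi-2 replicate 2, which held the most seed storage transcript, and Col-0 replicate 1, which stood apart from the other Col-0 libraries, a setting chosen after seeing the data, the calls numbered 6296, NDA1 was at -2.12, NDC1 at -0.54 and AOX2 at 2.91, and the signs of SRO1 (-0.048), SDH5 (0.039) and MENG (-0.27) changed. The cause of these changes was not tested.

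Replicate numbers were not taken as pairs, since same-numbered libraries deviated together with correlations of only 0.0506, 0.0484 and 0.0224, although each library correlated best with its own number. With the replicate block 6161 genes were called (3123 higher, 3038 lower), 16 genes of the pathway lists rose and 14 fell, and the log2 fold changes of NDA1, NDB2, NDC1 and AOX2 were -2.0, -0.41, -0.63 and 2.60. Depth limits AOX1C, AOX1D, AOX2, NDB3 and NDB4, which had at most 41 counts in any library. With no low-count filter the log2 difference of AOX1C was -1.01 with an SE of 0.86 (edgeR adjusted p = 0.44).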
